A study of Mus musculus with 2 samples.

Results

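Cytosolic ribosomal protein genes were compared between cultured mouse neural retinal progenitor cells (mNRPCs) and mouse retina tissue. Members were chosen by gene symbol and not by expression. Symbols of the form Rpl or Rps followed by a number were taken, together with Rplp0, Rplp1, Rplp2 and Rpsa, after the transcript rows of the deposited table had been summed per gene. This gave 85 members of 31253 genes. Of these, 77 are the standard ribosomal protein genes (46 of the large 60S subunit and 31 of the small 40S subunit), and 8 are copies of a standard gene with a symbol of their own (Rpl3l, Rpl7l1, Rpl10l, Rpl22l1, Rpl32l, Rpl39l, Rps4l and Rps27l).

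The study isolated progenitor cells from adult mouse retina and grew them in defined medium. The mNRPC group was 1 library of C57BL/6 cells at passage 24. By the study's methods the donor animals were 8 to 10 weeks old, and the cells were kept with 10 ng/ml basic fibroblast growth factor (bFGF) and 2 µM CHIR99021, which inhibits glycogen synthase kinase 3. The retina group was 1 library of C57BL/6 retina tissue without culture, and its labels give no age. Without replicate libraries no spread within a group was known, so no p-value was calculated and every difference below is one between these libraries.

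The cytosolic ribosome makes all proteins that are encoded in the nucleus. Each standard ribosomal protein is present in the ribosome in 1 copy, except the acidic stalk proteins, and the genes are known to be expressed together and to be among the most abundant mRNAs of growing cells. Their mRNAs begin with a cytosine and a run of pyrimidines, the 5′ terminal oligopyrimidine (TOP) sequence, through which the kinase mTOR and the protein Larp1 control their translation. That control acts on protein synthesis and is not measured by mRNA levels.

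Depth and cell makeup touch every result. From the lowest values the mNRPC library was estimated at 6.47e+06 fragments and the retina library at 5.07e+06. FPKM (fragment numbers normalised to transcript length and to the mapped fragments of the library) summed to 616860 and 432256, a ratio of 1.43. Of 8 rod marker genes, 8 were at least 2-fold lower in the mNRPC library, with a summed level of 7.88 FPKM against 20487 FPKM in retina, where they held 4.74% of all FPKM. Of 5 genes of dividing cells, 5 were at least 2-fold higher, with 324 FPKM against 2.23 FPKM. Among 5 progenitor markers, Sox2, Nes and Vim were higher, and Pax6 (123 and 101 FPKM) and Six3 (39.7 and 33.2 FPKM) differed by less than 2-fold. Of 4 Müller glia markers, 4 were lower, with 31.6 FPKM against 1171 FPKM in all. Of 4 fibroblast markers, 3 could be compared, and Col3a1 (450 and 0.311 FPKM) alone was at least 2-fold higher. Red blood cell markers (3 of 3 compared, 0.449 against 374 FPKM in all), pigment epithelium markers (3 of 3, 0.383 against 15.3 FPKM) and endothelium markers (2 of 2, 0.0240 against 7.73 FPKM) were lower, and of the microglia markers 1 could be compared and lay between. The part of this difference in cell makeup in the ribosomal protein values was not tested. In such bulk samples a change in the number of cells of a type and a change in the RNA of each cell cannot be told apart.

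Ribosomal protein genes held 20.0% of all FPKM in the mNRPC library and 5.79% in the retina library, a 3.46-fold difference in share. The 60S genes held 11.8% and 3.40%, and the 40S genes held 8.19% and 2.36%. The 8 copies together held 0.0475% and 0.0321%. The median level of the 77 standard genes was 1454 FPKM in mNRPCs and 324 FPKM in retina. Because FPKM is relative to the whole library, these shares give no amount of ribosomal protein mRNA per cell.

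All 77 standard genes were listed at least 2-fold higher in the mNRPC library, among them Rps19, whose retina value lay under the limit of detection, and Rps6, neither of whose levels is read as expression. The difference is taken as log2 of (mNRPC FPKM + 1)/(retina FPKM + 1), which is called the log2 ratio here. Of the 85 members, 82 reached 1 FPKM in at least 1 library and could be compared, and of these 80 were at least 2-fold higher, 1 was lower (Rps4l) and 1 lay between (Rpl22l1). Among the 13780 genes compared, 24.5% were at least 2-fold higher and 30.0% at least 2-fold lower. At a 4-fold threshold, 46 of the 82 members were higher, against 11.2% of the genes compared. The median log2 ratio was 2.14 over the standard genes, a 4.41-fold difference, and −0.12 over all genes compared. When each library was rescaled to the same FPKM sum, the median over all genes compared moved to −0.68, and 70 of 82 members were at least 2-fold higher, against 18.4% of all genes compared at that scaling. Of the 70, 68 were standard genes, with a lowest log2 ratio of 0.58 among the 77.

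**Figure D1:**
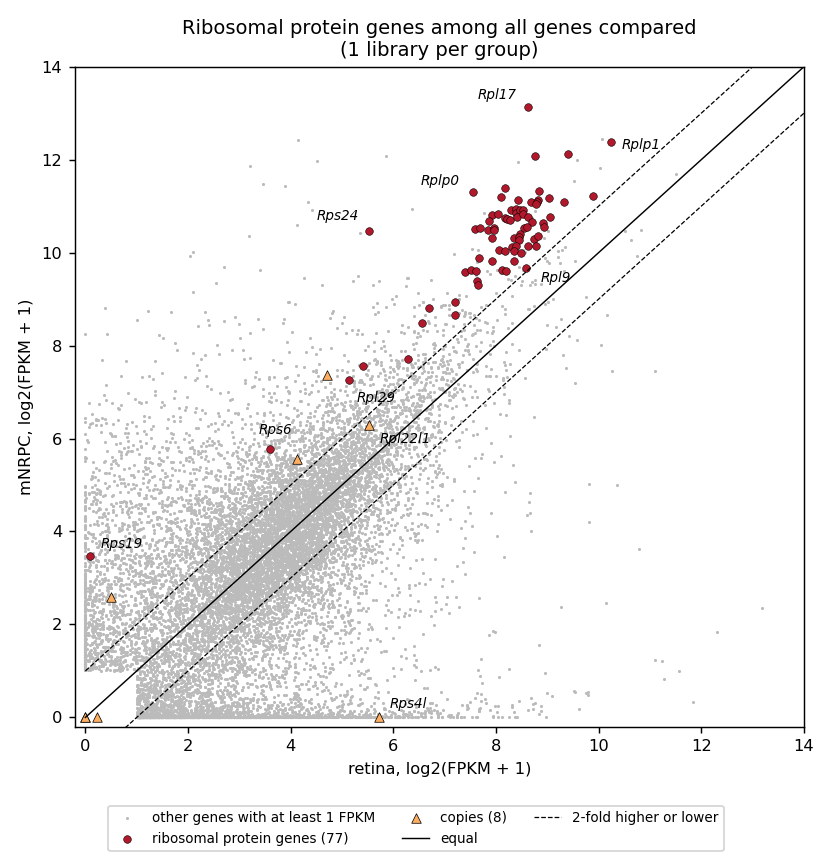
Level of every gene compared in the retina library (horizontal axis) and in the mNRPC library (vertical axis), both as log2(FPKM + 1), with 1 point per gene. The 77 standard ribosomal protein genes (red circles) all lie above the upper dashed line of 2-fold difference, most of them in one group at the upper right, while Rps19 and Rps6 lie far from it and the copies (triangles) are scattered at lower levels.

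Ribosomal protein genes also took more of the top ranks in the mNRPC library. Of the 50 genes with the highest FPKM, 31 were ribosomal protein genes in mNRPCs and 4 in retina. Of the 100 highest, 58 and 18 were members, and of the 200 highest, 70 and 51. Rpl17 was the most abundant gene of the mNRPC library and stood at rank 105 in retina, where the highest member was Rplp1 at rank 17.

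**Figure D2:**
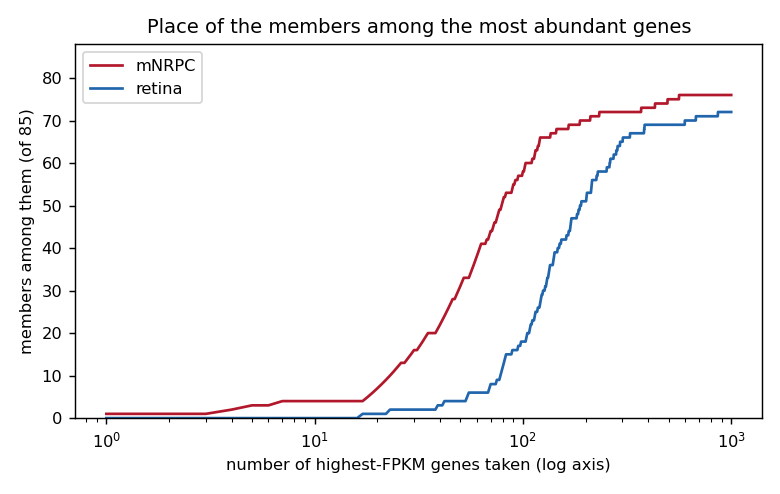
Number of the 85 members (vertical axis) among the most abundant genes of each library, against the number of top genes taken (horizontal log axis). The mNRPC line climbs earlier, reaching 58 members within the top 100 genes, where the retina line stands at 18.

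Levels of standard genes lay close together within each library. In mNRPCs their quartiles were 948 and 1925 FPKM, and 62 of 77 were within 2-fold of the median. In retina the quartiles were 228 and 395 FPKM, and 64 of 77 were within 2-fold of the median. The SD of log2(FPKM + 1) over the members compared was 2.04 in mNRPCs and 1.68 in retina. It was 1.35 and 1.36 over the 77 standard genes, and 0.99 and 0.87 once Rps19 and Rps6 were left out as well. Over the standard genes the log2 levels of the libraries had a Pearson correlation of 0.88 and a Spearman correlation of 0.65, and 0.75 and 0.62 without Rps19 and Rps6. These describe 77 and 75 genes that share transcript lengths, base composition and estimation method in both libraries.

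The 5 most abundant members held 20.9% of the members' FPKM in mNRPCs and 16.0% in retina. In mNRPCs they were Rpl17 (9031 FPKM), the stalk gene Rplp1 (5328 FPKM), Rpl41, which encodes the smallest ribosomal protein (4472 FPKM), Rps12 (4318 FPKM) and Rps26 (2693 FPKM). In retina they were Rplp1 (1204 FPKM), Rps29 (941 FPKM), Rpl41 (677 FPKM), Rps15 (642 FPKM) and Rpl30 (528 FPKM). Rplp1 and Rpl41 were on both lists. Transcripts of the standard genes were short, with a median of 830 bp against 2921 bp for all genes compared. Across the standard genes transcript length had a Spearman correlation of −0.27 with the mNRPC level and −0.37 with the retina level, but of 0.0027 with the log2 ratio.

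**Figure D3:**
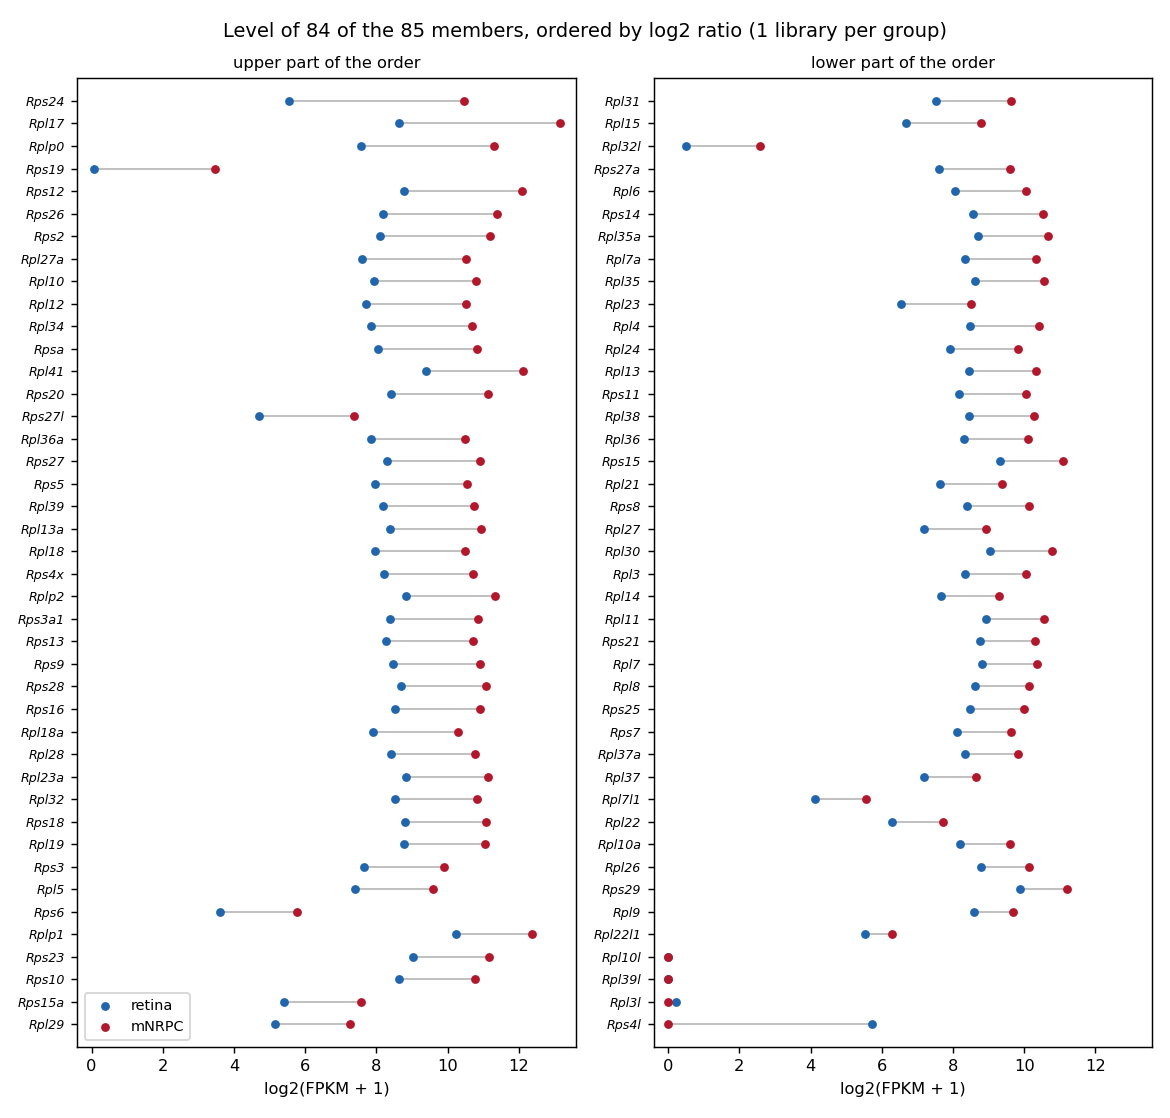
Level of 84 of the 85 members in retina (blue) and mNRPCs (red) as log2(FPKM + 1), with members ordered by log2 ratio from the top of the left panel to the bottom of the right panel. Red points lie to the right of blue points for every standard gene shown, and the order is reversed for Rps4l and Rpl3l at the bottom, while Rpl10l and Rpl39l are listed at 0 in both libraries.

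The size of the difference varied between members. Log2 ratios of the standard genes ran from 1.09 to 4.93, with quartiles of 1.76 and 2.52. Of the 77 genes, 70 lay within 2-fold of the median fold difference, 7 had a log2 ratio under 1.5 and 7 had one of at least 3. Counting error was small beside this range, with a median standard error of 0.04 on the log2 scale from the estimated fragment numbers. This error does not include the variation between cultures or animals. The 40S genes had a median log2 ratio of 2.28 and the 60S genes one of 1.99. At least 4-fold higher were 22 of 31 and 22 of 46, against 11.2% of all genes compared.

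Rps24, a 40S protein gene, had the highest log2 ratio of the members, which it did not keep with the highest transcript of each gene (4.01, against 4.51 for Rpl17). With 0.1 FPKM added in place of 1 it was also below Rps19 (4.95 against 6.02), whose retina value lay under the limit of detection. Rps24 stood at 1407 FPKM in mNRPCs and 45.3 FPKM in retina, a log2 ratio of 4.93. In mNRPCs it was close to the median of the standard genes (1454 FPKM), and in retina it was below their lower quartile of 228 FPKM. Its values came from 3 annotated transcripts. They share exons 2 to 4, and exon 4 ends at position 24493493 of chromosome 14 (GRCm38, plus strand). They differ in the exon that comes next, and further in the length of the last exon and of exon 1. The junctions are shown because they set apart the forms whose estimated levels are given below, with exon 4 in lower case and the first 12 bases of the next exon in capitals.
Rps24, exon of 20 bases next: ggtgctggcaaaaagTGAGTGGAGATT
Rps24, last exon next: ggtgctggcaaaaagCCAAAGGAGTAG
Rps24, exon of 18 bases next: ggtgctggcaaaaagAAATGAAATACC

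In the first form the next exon lies at chr14:24495430-24495449 and begins with a stop codon, so that the protein ends with the last codon of exon 4. In the second form exon 4 is joined to the last exon at chr14:24495775-24496959, which adds 3 codons before a stop. In the third form an exon at chr14:24494052-24494069 adds 1 codon before a stop. The first form was at 702 FPKM in mNRPCs and 42.5 FPKM in retina. The second form was at 671 FPKM in mNRPCs and 1.93 FPKM in retina, and it made up 47.7% of the gene's FPKM in mNRPCs and 4.25% in retina. The third form was at 34.3 and 0.917 FPKM. By estimated fragments the second form rested on 7004 fragments in mNRPCs and 15.8 in retina, and the third on 117 and 2.44. No junction reads were counted. The division of reads between these forms rests on the authors' estimation, and 74.0% of the 31-base words of the Rps24 transcript also occur in transcripts of other genes.

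The other members with large differences came from both subunits. Rpl17, whose protein lines the exit tunnel of the 60S subunit, was at 9031 FPKM in mNRPCs and 395 FPKM in retina (log2 ratio 4.51). Rplp0, the core of the stalk that binds translation factors, was at 2532 and 187 FPKM (3.75). Rps12 was at 4318 and 433 FPKM (3.31), Rps26 at 2693 and 289 FPKM (3.22), and Rps2, which lies at the entry of the mRNA channel, at 2327 and 271 FPKM (3.10). Rpl27a (1454 and 191 FPKM, 2.92), Rpl10 (1783 and 241 FPKM, 2.88) and the stalk base gene Rpl12 (1469 and 206 FPKM, 2.83) followed. The share of their 31-base words that occur in transcripts of other genes ran from 37.3% for Rpl27a to 92.3% for Rpl10. For Rpl17 it was 79.2%. In retina these 8 genes stood between 187 and 433 FPKM, near or within the quartiles of the standard genes, whereas in mNRPCs most of them stood above the median. Rps24, in contrast, was near the median in mNRPCs and low in retina.

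The smallest differences among the standard genes were also spread over both subunits. Rpl9 was at 814 FPKM in mNRPCs and 382 FPKM in retina (log2 ratio 1.09). It was the 1 standard gene under 2-fold after trimmed mean scaling, with 0.96. After rescaling to the same FPKM sum all 7 genes named in this paragraph were under 2-fold, from 0.58 for Rpl9 to 0.96 for Rpl37a. Rps29 was at 2366 and 941 FPKM (1.33), Rpl26 at 1126 and 439 FPKM (1.36), Rpl10a at 772 and 291 FPKM (1.41) and Rpl22 at 208 and 77.1 FPKM (1.42). Rpl37 (403 and 146 FPKM, 1.46) and Rpl37a (906 and 325 FPKM, 1.47) differed by nearly the same fold. Rps29 was the second most abundant member in retina, and in mNRPCs it was not among the 5 highest.

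Grouped by their place in the ribosome, members differed in size within each group. The 4 stalk genes ranged from a log2 ratio of 2.14 for Rplp1 (5328 and 1204 FPKM) to 3.75 for Rplp0, with Rplp2 at 2572 and 458 FPKM (2.49). The order of these 4 genes by level differed between the libraries only in Rplp0 and Rpl12, with Rpl12 (1469 and 206 FPKM) lowest in mNRPCs and Rplp0 lowest in retina. Of the genes for the particle that holds 5S rRNA and can bind the p53 regulator Mdm2, Rpl5 was at 766 and 168 FPKM (2.18) and Rpl11 at 1492 and 485 FPKM (1.62). The 7 exit tunnel genes (Rpl17, Rpl19, Rpl23a, Rpl26, Rpl31, Rpl35 and Rpl39) ranged from 1.36 to 4.51 with a median of 2.26. At the mRNA entry, Rps2 (3.10) and Rps3 (948 and 201 FPKM, 2.23) differed, and near the decoding site Rps15 (2191 and 642 FPKM, 1.77) and Rps23 (2308 and 522 FPKM, 2.14).

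Some members are known for functions besides their place in the ribosome. Rpsa, also known as a precursor of a laminin receptor, was at 1809 FPKM in mNRPCs and 261 FPKM in retina (log2 ratio 2.79). Rps27a, whose product is made as a fusion with ubiquitin, was at 781 and 193 FPKM (2.01). Of 9 members whose human counterparts are mutated in Diamond-Blackfan anaemia, a failure of red cell formation, all 9 were listed at least 2-fold higher, as were all 77 standard genes and 24.5% of all genes compared. After rescaling to the same FPKM sum Rps7 was at 0.992 and no longer 2-fold higher, as were 8 others of the 77. Rps19, one of the 9, counts with a retina value under the limit of detection. They ranged from 1.503 for Rps7 (787 and 277 FPKM) to 4.93 for Rps24, with a median of 2.14, the same as that of all standard genes. Among the others were Rpl11 (1.62), Rpl35a (1626 and 413 FPKM, 1.97), Rps10 (1748 and 395 FPKM, 2.14), Rpl5 (2.18), Rps26 (3.22) and Rps19, which had very low values.

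Rps19 and Rps6 were far below the other standard genes in both libraries. A gene was read as far below when its level was under 0.1 times the median, which was 145 FPKM in mNRPCs and 32.4 FPKM in retina. Rps19, which is needed for maturation of the 40S subunit, was at 10.2 FPKM in mNRPCs and 0.0586 FPKM in retina. In retina this amounted to an estimated 0.188 fragments, under the floor of 3 fragments used here as the limit of detection. Its log2 ratio was 3.40 with 1 FPKM added and 6.02 with 0.1 FPKM added, so it is given here without a fold. Rps6, the substrate of the S6 kinases that is widely used as a marker of mTOR activity, was at 53.9 and 11.1 FPKM, with a log2 ratio of 2.18. Next above the threshold stood Rpl29 (152 and 34.3 FPKM), Rps15a (187 and 41.7 FPKM) and, in retina, Rps24. Rps15a had the longest matched transcript of the standard genes, 5179 bp, and its values amounted to an estimated 6277 and 1094 fragments.

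Both genes make an essential part of every ribosome, and low values of such genes can be failed estimates, so their levels are not read as expression. Many ribosomal protein genes have near-identical pseudogenes, among which reads are hard to divide. Of the 31-base words of the Rps6 transcript, 84.9% occurred in transcripts of other genes, and of those of Rps19 58.4%. Over the standard genes the median was 58.1%, from 2.60% to 98.7%, and 47 of 77 were over 50%. Rpl9, at 93.5%, was not far below the other genes. The share of such words had a Spearman correlation of 0.15 with the mNRPC level, 0.14 with the retina level and 0.10 with the log2 ratio across the 77 genes. What made the values of Rps19 and Rps6 low was not tested.

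The copies differed from each other in level and in ratio. Rps27l, known as a target of p53, was at 164 FPKM in mNRPCs and 25.3 FPKM in retina (log2 ratio 2.65), and it stood at 8.50% of the FPKM of Rps27 in mNRPCs and at 8.07% in retina. Rpl7l1 was at 46.2 and 16.3 FPKM (1.45), or 3.52% and 3.64% of Rpl7. For both copies the share of the parent's level was alike in the libraries. Rps27 is hard to tell from its retrogene Rps27rt, and against the sum of both Rps27l stood at 4.28% and 3.40%. Rpl22l1, whose protein can take the place of Rpl22, was at 77.6 and 45.2 FPKM (0.77), and it stood at 37.4% of Rpl22 in mNRPCs and at 58.7% in retina. It had the highest share of any copy in both libraries and was, at the deposited scaling, the only member compared that differed by less than 2-fold, whereas 11 did so after rescaling to the same FPKM sum.

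Rps4l, a copy of the X-linked Rps4x, was at 51.5 FPKM in retina, an estimated 246 fragments, and was listed at 0 in mNRPCs. In retina this was 17.5% of the level of Rps4x, which was at 1688 FPKM in mNRPCs and 294 FPKM in retina (log2 ratio 2.52). Of the 31-base words of the Rps4l transcript, 0.876% occurred in that of Rps4x, 25.6% in that of Rps4l-ps and 26.0% in any other gene. The only row of Rps4l is annotated as a non-coding transcript. Rps4l was the only member at least 2-fold lower in mNRPCs. Because an estimate can fail, no fold is given.

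The copies known from testis or muscle were at or near 0. Rpl10l and Rpl39l, both known from testis, were listed at 0 in both libraries, while the level of the parent was 1783 and 241 FPKM for Rpl10 and 1706 and 289 FPKM for Rpl39. Rpl3l, known from heart and skeletal muscle, had 0.163 FPKM in retina and a listed 0 in mNRPCs. The retina value was an estimated 0.852 fragments, below the floor. Its parent Rpl3 was at 1052 and 324 FPKM (1.70). Rpl32l was at 5.01 FPKM in mNRPCs and 0.418 FPKM in retina, or 0.275% and 0.113% of Rpl32.

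**Figure D4:**
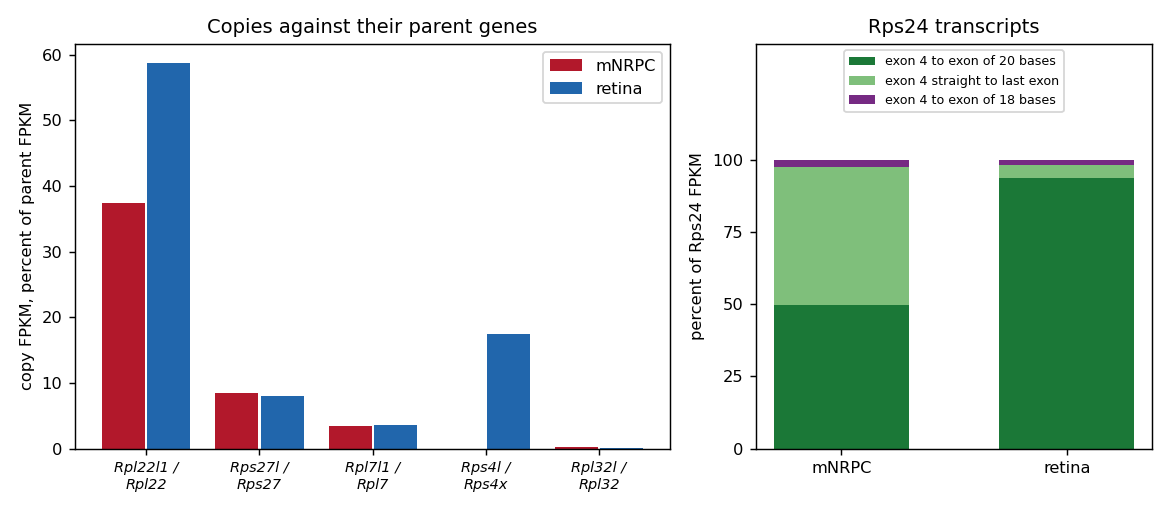
Left, FPKM of 5 copies as a percentage of the FPKM of the parent gene in mNRPCs (red) and retina (blue). Rpl22l1 is lower beside its parent in mNRPCs (37.4% against 58.7%), Rps27l (here against Rps27 without its retrogene) and Rpl7l1 are alike in both, and Rps4l has a bar in retina only. Right, share of Rps24 FPKM held by its 3 transcripts, named by the exon that follows exon 4, where the form joined to the last exon makes up 47.7% in mNRPCs and 4.25% in retina.

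Other genes of the translation apparatus were set beside the ribosomal protein genes. Fau (1705 and 417 FPKM, log2 ratio 2.03), Rpl36al (467 and 125 FPKM, 1.90) and Rack1 (1073 and 185 FPKM, 2.53), which the symbol rule leaves out and which encode further ribosomal proteins and a protein bound to the 40S subunit, were each at least 2-fold higher. Of 14 other genes whose mRNAs are known as TOP mRNAs, 12 were at least 2-fold higher and none was lower, against 24.5% higher and 30.0% lower among all genes compared, with a median log2 ratio of 1.49. Rescaled to the same FPKM sum, 7 of the 14 were at least 2-fold higher, against 18.4% of all genes. The elongation factor gene Eef1a1 was at 5528 and 1062 FPKM (2.38), Eef1b2 at 455 and 47.7 FPKM (3.23), Npm1, a nucleolar protein of ribosome assembly, at 995 and 145 FPKM (2.77) and Tpt1, the translationally controlled tumour protein gene, at 4055 and 760 FPKM (2.41). Eef1d was at 13.7 and 18.8 FPKM (−0.43) and Nap1l1 at 182 and 94.2 FPKM (0.94).

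Of 12 initiation factor genes outside that group, 7 were at least 2-fold higher and none was lower, with a median of 1.13, beside the same 24.5% and 30.0% of all genes compared. After that rescaling 3 of the 12 were higher, against 18.4% of all genes. Eif2s2 was at 138 and 32.7 FPKM (2.05), and Eif1 was at 231 FPKM in mNRPCs and 293 FPKM in retina (−0.34). Of 7 regulators, 6 could be compared and 2 were at least 2-fold higher, a share of 33.3% that is near the 24.5% of all genes compared. Mtor was at 46.4 and 13.4 FPKM (1.72), and Eif4ebp1, a repressor of cap-dependent initiation that mTOR inactivates, was at 155 and 1.51 FPKM (5.96). Larp1 was at 26.7 and 16.7 FPKM (0.65), and the S6 kinase gene Rps6kb1 at 15.4 and 16.7 FPKM (−0.11).

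Mitochondrial ribosomal proteins form a separate ribosome, which translates the mitochondrial genome. Of their 78 genes, 32 were at least 2-fold higher, 1 was lower and 45 lay between, with a median log2 ratio of 0.71 and quartiles of 0.19 and 1.22. This was 41.0% higher, against 24.5% of all genes compared and 80 of 82 members. With both libraries at the same FPKM sum the share higher fell below that of all genes, with 10 of 78 (12.8%) against 18.4%. At that scaling 5.13% were at least 2-fold lower, against 42.4% of all genes, and the median log2 ratios were 0.24 and −0.68. Their median level was 35.1 FPKM in mNRPCs and 22.4 FPKM in retina. Mrps6 was at 307 and 32.7 FPKM (3.19). Mrps21 (85.9 and 0.247 FPKM) and Mrpl21 (0.261 and 3.47 FPKM) were at the ends of the list, but the retina value of Mrps21 (an estimated 0.507 fragments) and the mNRPC value of Mrpl21 (1.92) lay under the floor of 3 fragments, so no ratio is given for them.

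**Figure D5:**
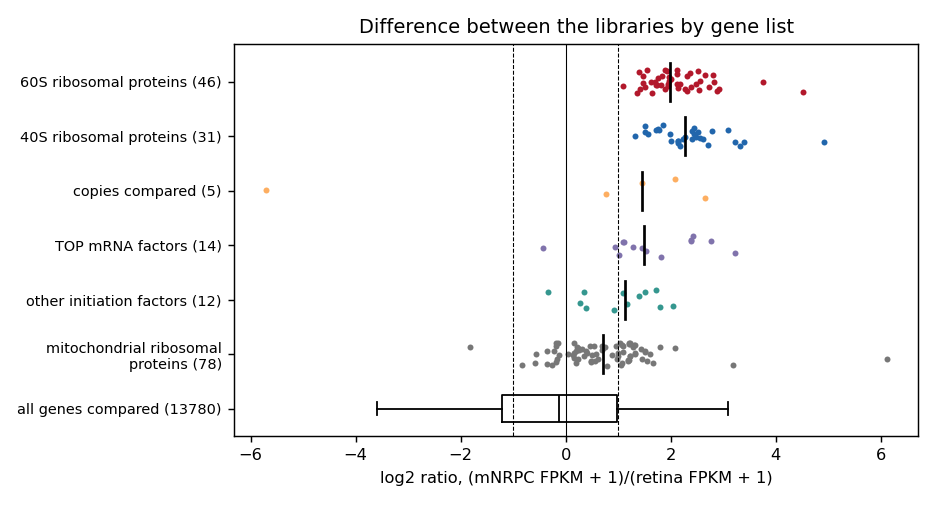
Log2 ratio of the genes of each list, 1 point per gene with the list's median as a black line, and for all 13780 genes compared a box from the lower to the upper quartile with whiskers at the 5th and 95th percentiles. All 77 standard ribosomal protein genes lie right of the dashed line at 1, the TOP mRNA and initiation factor lists straddle it, and the mitochondrial ribosomal protein genes have a median of 0.71.

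Sequences around the annotated transcription start were examined because TOP mRNAs are defined by their first bases. RefSeq promoter sequence (assembly GRCm38.p6, 250 bases before to 50 bases after the start) was matched for 64 of the 85 members, 57 of them standard genes. A run of at least 5 pyrimidines that holds the start base was present in 21 members (32.8%), against 11.8% of 27025 genes with a promoter and 5.80% of the mitochondrial ribosomal protein genes. A run of at least 8 within 50 bases of the start, a window chosen after the sequences had been seen, was present in 82.8% of members and 39.3% of all genes. The sequences below show 10 bases before the annotated start and 20 bases from it on, read on the gene's strand, with the run of pyrimidines that holds the start in capitals. The first 5 genes have such a run and the last 3 have none at the annotated position.
Rpl35: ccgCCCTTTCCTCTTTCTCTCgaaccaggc
Rps10: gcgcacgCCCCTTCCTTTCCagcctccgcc
Rps18: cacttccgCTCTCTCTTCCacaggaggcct
Rplp2: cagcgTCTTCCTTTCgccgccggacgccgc
Rps6: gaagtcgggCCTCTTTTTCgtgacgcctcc
Rplp0: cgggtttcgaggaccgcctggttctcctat
Rps12: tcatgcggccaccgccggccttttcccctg
Rpl22l1: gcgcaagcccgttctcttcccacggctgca

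The Rpl35 sequence lies at chr2:39005112-39005141 and the Rps10 sequence at chr17:27635225-27635254, both on the minus strand. Rps18 lies at chr17:33955646-33955675 and Rps6 at chr4:86857348-86857377, also on the minus strand, and Rplp2 at chr7:141447641-141447670 on the plus strand. Rplp0 lies at chr5:115559457-115559486 and Rpl22l1 at chr3:28805498-28805527 on the plus strand, and Rps12 at chr10:23787190-23787219 on the minus strand. Of the 10 members with the highest log2 ratio, 9 had a promoter, and of these Rps24 (run of 9) and Rpl27a (run of 20) had a run of at least 5 at the annotated start and the other 7 had none. Over the 57 standard genes with a promoter the median log2 ratio was 2.16 for the 20 with such a run and 2.23 for the 37 without. An annotated start can lie some bases from the start used in a tissue, so a missing run says nothing of the mRNA itself.

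Short motifs were searched on both strands of the same 300 bases. CCGGAAG, a sequence bound by factors of the ETS family, was present in 40.6% of members, in 37.7% of the mitochondrial ribosomal protein genes and in 9.93% of all genes with a promoter. AAGATGG, which YY1 can bind, was present in 15.6%, 18.8% and 7.28%. The E-box CACGTG, which MYC can bind, was present in 9.38% of members and 8.09% of all genes, and TATAAA in 12.5% and 15.7%. Standard genes with CCGGAAG had a median log2 ratio of 2.16 (24 genes) and those without it one of 2.23 (33 genes). With and without the other motifs the medians were 2.14 and 2.21 for AAGATGG (9 and 48 genes), 2.40 and 2.18 for CACGTG (6 and 51 genes) and 2.60 and 2.14 for TATAAA (6 and 51 genes). For the run of at least 8 pyrimidines they were 2.14 with it (48 genes) and 2.44 without (9 genes). A match is a description of the sequence and shows no binding.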

How the data were processed

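The authors deposited FPKM values per RefSeq transcript for both libraries. The study's methods name mapping with Bowtie 2, FPKM estimation with eXpress and the BGISEQ-500 sequencer, whereas the submitters' processing notes name TopHat2 2.0.10 and GRCm38.p3 and the series text a HiSeq instrument. Which of these made the values was not settled. Members and gene lists were chosen with earlier results of these data known.

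Accessions were matched without version to the RefSeq gene table (GRCm38.p6), then to GENCODE M21, and 69.6% of 106754 rows got a symbol, with 93.2% of mNRPC and 89.9% of retina FPKM. Rows of a symbol were summed. Values under 1e-06 FPKM were read as 0. Genes with at least 1 FPKM in either library were compared with 1 FPKM added. A log2 ratio of at least 1 in size was called higher or lower. Named were the 10 members with the highest and the 10 with the lowest log2 ratio, the 5 most abundant, those far below the median, copies with parents, and role groups. A few genes counted in the totals are not named or plotted singly. Depth was estimated from the lowest products of FPKM and length in transcripts of at least 1500 bp, and fragment numbers, standard errors and the floor of 3 fragments follow from it. They cover counting error only. Words of 31 bases were compared between GENCODE transcripts. The functions were tested on simulated data. Python 3.11.15, numpy 2.4.6, pandas 2.3.3 and scipy 1.17.1 were used. Alternatives changed the pseudocount, filter, scaling, row choice, members and length or GC correction.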

Additional observations from a re-analysis of the deposited data

How the results depend on the processing

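No paired analysis was possible because the groups held only 1 library each, which also prevented leaving a library out. The cultures, animals and preparations behind the difference cannot be told apart from the groups, and precision is known for counting error only. No list median changed direction under the settings tried, and neither did any of the 52 members followed singly. Marker genes, pseudogenes and genes of the other lists were not followed singly. Rescaling to the same FPKM sum shifted the libraries against each other by 0.51 on the log2 scale. That is more than the log2 ratios of Pax6 (0.28) and Six3 (0.25), so their direction depends on the scaling. Estimated depth was 6.40e+06 and 4.90e+06 fragments for mNRPCs and retina with a shortest transcript of 500 bp, and 6.44e+06 and 5.50e+06 with 2500 bp.

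Scaling moved the medians of the log2 ratios. With each library rescaled to a sum of 1e+06, the median was 1.63 for the members, 0.24 for mitochondrial ribosomal proteins, 0.98 for TOP mRNA factors, 0.63 for other initiation factors and 0.17 for regulators. In the same order the medians were 2.02, 0.59, 1.36, 1.004 and 0.58 with trimmed mean scaling, 2.01, 0.59, 1.36, 1.001 and 0.57 with upper quartile scaling, and 1.83, 0.42, 1.18, 0.82 and 0.40 with a common sum of the genes that are no members. Under the same settings the median over all genes compared was −0.68, −0.24, −0.24 and −0.42, and the median of the members exceeded it by 2.32, 2.26, 2.26 and 2.25, against 2.25 as deposited. Correction for transcript length gave a median of 1.79 for the members. With curated rows only, the medians of TOP mRNA and other initiation factors were 1.67 and 0.90. Chosen after seeing the data, counts of genes at least 2-fold higher were also taken for the lists. Rescaled to a sum of 1e+06 they were 10 for mitochondrial ribosomal proteins, 7 for TOP mRNA factors and 3 for other initiation factors, and with a common sum of the genes that are no members 14 for mitochondrial ribosomal proteins, or 17.9% against 20.0% of all genes. With trimmed mean and upper quartile scaling 25 of these 78 were higher (32.1%), against 22.7% and 22.6% of all genes. The 4-fold threshold left 46 members higher.

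The share of FPKM held by members in mNRPCs and retina was 19.8% and 5.72% with curated rows only, 19.7% and 5.71% with the highest row of a gene, 18.9% and 5.50% with accessions matched by version, which found 80 members, and 21.5% and 6.44% over matched rows only. It was 20.8% and 6.07% with 4 genes outside the symbol rule added. Without the 7 copies listed at first (Rpl32l stayed in) it was 19.95% and 5.76%, with no member lower (0) and an SD of 1.60 in mNRPCs. Without the 10 members far below the others in either library it was 19.94% and 5.75%, with 0 lower and SDs of 0.99 and 0.87. At 0.01 times the median, 5 members were far below in retina, against 8 at 0.1 times the median. Chosen after seeing the data, leaving out all 8 copies gave 19.95% and 5.76%, 0 lower and SDs of 1.35 and 1.36, and adding Rps27rt to Rps27 gave 20.3% and 5.89%. Of 362 values of named genes under these settings, 133 moved by more than their counting error.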

Other observations

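Pseudogenes and retrogenes of ribosomal protein genes with a symbol of their own, which the symbol rule leaves out, held 0.376% of FPKM in mNRPCs and 0.136% in retina over 10 symbols. Most of this was Rps27rt, a retrogene of Rps27, at 1904 FPKM in mNRPCs and 430 FPKM in retina (log2 ratio 2.14), beside 1932 and 313 FPKM for Rps27 itself (2.62). Of the 31-base words of the Rps27 transcript, 98.7% occur in Rps27rt, so that the values of this pair are uncertain one by one. Their sum was 3835 FPKM in mNRPCs and 743 FPKM in retina, a log2 ratio of 2.37. Rpl14-ps1 was at 193 and 133 FPKM (0.53), Rpl17-ps8 at 160 and 1.14 FPKM (6.23) and Rps19-ps3 at 5.94 and 9.53 FPKM (−0.60). Rpl17 and Rpl17-ps8 share 70.9% of the words of Rpl17. Rps19-ps3 was above Rps19 in retina and below it in mNRPCs. Whether reads of Rps19 were assigned to other rows was not tested.

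Of the rows in the table, 32474 had no matched symbol, with 6.80% of the FPKM in mNRPCs and 10.1% in retina. Of these, 42 rows in mNRPCs and 29 in retina were at 100 FPKM or more, up to 1471 and 484 FPKM. Whether any of them holds a transcript of a ribosomal protein gene was not determined.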
